A study of Mus musculus with 24 samples.

Results

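The data are the 6 libraries made from lenses of mouse embryos at E16.5 (counted in days of embryonic development), 3 of fiber cells and 3 of epithelium, out of 24 libraries in a series that sampled both tissues at 4 stages from E14.5 to 0.5 days after birth. All animals were CD1, an outbred albino mouse stock, with no transgene, mutation or treatment named in the labels. The 2 tissues were separated by microdissection of the lens, and total RNA was extracted with Trizol, depleted of ribosomal RNA and made into stranded libraries. The groups were taken from the sample labels alone, and all genes in the deposited count table entered the comparison. The labels do not give the number of embryos behind a replicate, so p-values measure the spread between these libraries, which may be partly technical.

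The lens is built from 1 cell lineage. A single layer of epithelium covers its front and divides, and at the equator its cells leave the cell cycle, elongate into fibers, fill with crystallin protein, couple through gap junctions and finally degrade their nuclei and other organelles. Nutrients and ions enter mainly through the epithelium, while the fibers rely on channels, junctions and a specialised membrane skeleton to stay clear and tightly packed. FGF, BMP, Notch and Wnt signals are known to govern the step between the 2 states, with FGF as the main inducer of fiber differentiation in rodents.

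Fiber libraries held 13658834 to 18050763 counts and epithelium libraries 8352928 to 11819117. The 16 crystallin genes took 29.3%, 24.2% and 27.8% of the counts in fiber, against 2.96%, 3.32% and 2.91% in epithelium, and the ribosomal RNA precursor Rn45s took 6.41%, 16.3% and 8.89% in fiber, against 5.95%, 9.82% and 7.69% in epithelium. Levels below are counts per 1000000 (CPM) after TMM scaling, which centres the differences of most genes near 0, and a gene was called higher or lower at an adjusted p under 0.05 in edgeR's quasi-likelihood test together with a difference of at least 2-fold. Of 12427 genes tested, 1816 (14.6%) were higher in fiber and 2534 (20.4%) were lower, and for 9984 genes (80.3%) the 3 fiber libraries did not overlap the 3 epithelium libraries. The split depends on the scaling: with library size only, the median of all genes moved to -1.1 on the log2 scale, against -0.0195 with TMM, and 632 genes were higher (5.09%) and 6733 lower (54.2%). With the crystallins left out of the library size the median was -0.685, with 868 genes higher (6.98%) and 4609 lower (37.1%). Differences given below are therefore relative to the bulk of the genes. In dissected tissue, a smaller share of a cell type and less RNA per cell cannot be told apart. Counts of list members called below stand beside shares of 14.6% higher and 20.4% lower among all genes with TMM. Statements of no overlap stand beside 80.3% of all genes.

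**Figure D1:**
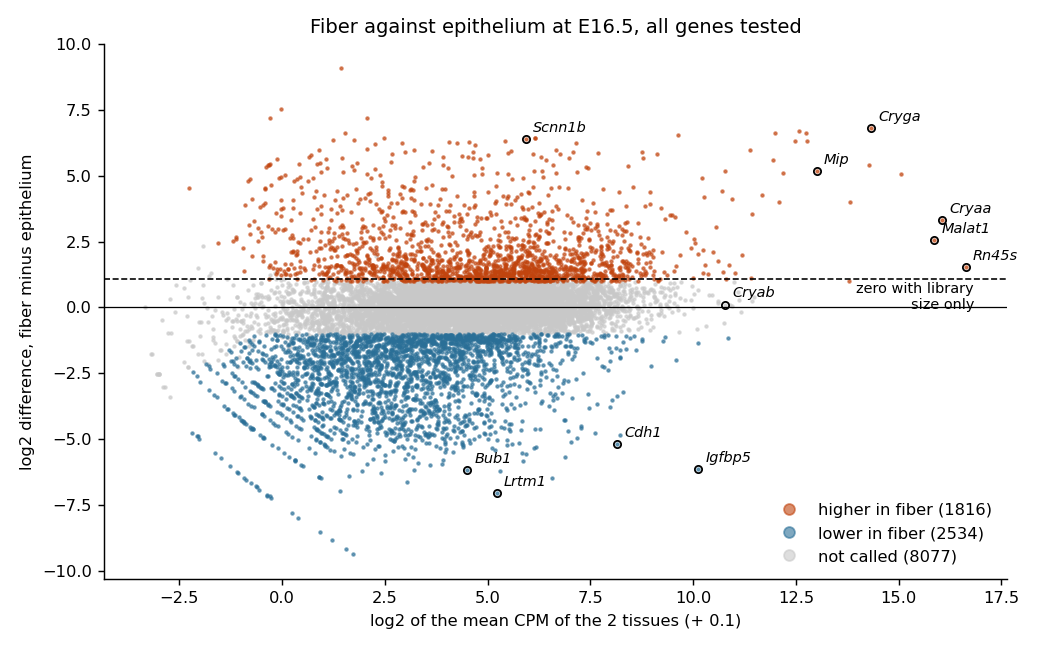
Each point is 1 of the 12427 genes tested, with the log2 of its mean CPM on the horizontal axis and its log2 difference, fiber minus epithelium at E16.5, on the vertical axis. Genes higher in fiber (1816) are orange and genes lower in fiber (2534) blue, the solid line is 0 with TMM scaling and the dashed line is where 0 would lie with library size only.

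The promoters of the genes at the 2 ends of the comparison are shown first, because these genes moved as groups. The sequences are the RefSeq promoters of build GRCm38.p6, the assembly of the mm10 build used for the counts, read on the gene's own strand, with positions counted back from the base before the transcription start. The 6 gamma crystallin genes Cryga to Crygf, 5 of them neighbours on chromosome 1, are shown from position -110 to -1, with the letters TATATA and TTTGTG in capitals:
Cryga (chr1:65103364-65103473, minus strand): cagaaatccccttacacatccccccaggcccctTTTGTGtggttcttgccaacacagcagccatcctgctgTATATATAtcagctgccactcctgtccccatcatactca
Crygb (chr1:65082291-65082400, minus strand): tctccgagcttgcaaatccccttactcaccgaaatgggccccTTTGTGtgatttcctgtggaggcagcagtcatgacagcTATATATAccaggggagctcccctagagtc
Crygc (chr1:65073533-65073642, minus strand): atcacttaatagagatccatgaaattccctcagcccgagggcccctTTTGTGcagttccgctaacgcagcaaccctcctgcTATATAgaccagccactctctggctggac
Crygd (chr1:65063441-65063550, minus strand): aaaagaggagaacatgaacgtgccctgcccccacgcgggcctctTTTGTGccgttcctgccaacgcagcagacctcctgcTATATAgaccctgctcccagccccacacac
Cryge (chr1:65051164-65051273, minus strand): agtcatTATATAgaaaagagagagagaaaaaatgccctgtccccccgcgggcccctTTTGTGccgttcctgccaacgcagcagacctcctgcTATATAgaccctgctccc
Crygf (chr1:65926412-65926521, plus strand): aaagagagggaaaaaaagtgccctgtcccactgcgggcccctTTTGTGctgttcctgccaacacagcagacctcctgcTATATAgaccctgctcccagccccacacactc
Each of the 6 holds TATATA 18 to 39 bases and TTTGTG 54 to 77 bases before the start. Over the 300 bases from 250 before to 50 after the start, on either strand, TATATA stood in 6 of 6 gamma crystallin promoters, against 6.66% of 27025 promoters, and TTTGTG in 6 of 6, against 20%. Both strings were picked after these sequences were read. Among all 15 crystallin genes with a promoter sequence, TATATA stood in 8 (53.3%).

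Large MAF factors, which drive crystallin genes, bind a site whose core is TGCTGA. The next 5 windows, from -140 to -10, carry that core in capitals on either strand (TCAGCA is its complement), from the alpha crystallin gene Cryaa and 4 beta crystallin genes:
Cryaa (chr17:31677791-31677921, plus strand): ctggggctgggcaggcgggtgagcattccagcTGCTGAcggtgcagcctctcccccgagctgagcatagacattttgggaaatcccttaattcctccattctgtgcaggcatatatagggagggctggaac
Cryba1 (chr11:77725303-77725433, minus strand): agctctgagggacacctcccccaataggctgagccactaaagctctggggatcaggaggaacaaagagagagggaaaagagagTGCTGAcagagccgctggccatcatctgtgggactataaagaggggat
Crybb1 (chr5:112255680-112255810, plus strand): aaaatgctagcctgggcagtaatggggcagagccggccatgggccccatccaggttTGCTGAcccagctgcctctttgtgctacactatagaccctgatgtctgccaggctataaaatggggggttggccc
Crybb3 (chr5:113081594-113081724, minus strand): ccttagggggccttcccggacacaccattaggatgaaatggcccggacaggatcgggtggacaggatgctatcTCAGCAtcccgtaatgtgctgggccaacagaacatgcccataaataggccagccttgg
Cryba4 (chr5:112252528-112252658, minus strand): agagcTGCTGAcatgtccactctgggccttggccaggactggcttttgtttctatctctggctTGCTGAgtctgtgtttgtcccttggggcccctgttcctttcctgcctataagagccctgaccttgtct
TGCTGA stood in 10 of 15 crystallin promoters (66.7%), against 21.7% of all promoters. Of the 6 gamma crystallin promoters shown above, 2 held it (33.3%), both upstream of the printed windows. At the other end, genes of mitosis are commonly controlled by a cell cycle homology region, TTTGAA, and CCAAT boxes. The windows of the kinase gene Cdk1, the anaphase activator gene Cdc20 and the topoisomerase gene Top2a, from -140 to -1, show both in capitals, on either strand (TTCAAA and ATTGG are the complements):
Cdk1 (chr10:69352913-69353052, minus strand): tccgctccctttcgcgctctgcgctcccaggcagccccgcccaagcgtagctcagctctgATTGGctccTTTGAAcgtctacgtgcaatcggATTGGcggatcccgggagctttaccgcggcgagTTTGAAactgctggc
Cdc20 (chr4:118437344-118437483, minus strand): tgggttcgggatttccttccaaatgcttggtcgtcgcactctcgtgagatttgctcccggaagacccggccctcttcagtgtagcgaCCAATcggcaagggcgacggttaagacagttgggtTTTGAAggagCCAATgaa
Top2a (chr11:99024190-99024329, minus strand): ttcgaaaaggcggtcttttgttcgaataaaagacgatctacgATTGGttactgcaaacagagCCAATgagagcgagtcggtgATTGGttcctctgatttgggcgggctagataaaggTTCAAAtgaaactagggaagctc
TTTGAA stood in 13 of 19 mitosis promoters (68.4%), against 20.2% of all, and CCAAT in 15 of 19 (78.9%), against 41.1%. The chaperone and heat shock genes held the inner part of a heat shock element, GAANNTTC, in 13 of 23 promoters (56.5%), against 9.04% of all. These matches describe the letters in the windows and were not tested as binding sites.

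Crystallins are the soluble proteins that refract light in the lens, and 15 of the 16 genes tested were higher in fiber. Their median log2 difference was 5.31, and 4.24 with library size only. Cryaa, which encodes the alpha-A chain, a small heat shock protein, had 129700, 122350 and 119580 CPM in fiber, against 11734, 13715 and 12074 CPM in epithelium. That is 9.9-fold (log2 3.31 ± 0.14 SE, edgeR adjusted p = 3.64e-16), with no overlap between the tissues. Per kilobase of exon and leaving out small noncoding RNAs such as Rpph1, the RNA of RNase P, Cryaa had the highest level of the genes with a known length in both tissues, 59670 CPM per kb ± 2520 in fiber and 6025 ± 510 in epithelium (SD, n = 3 each). Of the gamma crystallins, Cryga had 41433, 37672 and 42834 CPM in fiber and 295, 463 and 333 CPM in epithelium, a 112-fold difference (log2 6.80 ± 0.31 SE, edgeR adjusted p = 1.55e-15). Every fiber library was above every epithelium library for it, and epithelium replicate 2 was the highest of its group. The other 5 genes of the first set shown above lay at log2 5.59 (Crygc) to 6.69 (Crygb), and since these genes are near-identical in places, reads may be shared among them and single values are uncertain.

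Among the beta crystallins, Cryba1 had 70329, 63197 and 66192 CPM in fiber, against 1889, 2423 and 1691 in epithelium (log2 5.06 ± 0.18 SE, edgeR adjusted p = 2.16e-17). Cryba4, at log2 6.32, and Crybb1, at 5.43, stood higher than Crybb3, at 4.02, whose epithelium level of 1619, 1926 and 1464 CPM was close to that of Cryba1. Crybb2, a major beta crystallin of the mature lens, was still low at E16.5, with 17, 15.4 and 25.5 CPM in fiber and 5.58, 5.82 and 4.87 in epithelium (log2 1.82 ± 0.48 SE, edgeR adjusted p = 0.00143). Its 2 groups did not overlap, and its levels were far under those of the other beta genes. Crygs, the gamma-S gene of late fibers, had 829, 773 and 935 CPM in fiber and 50.2, 68.8 and 54.5 in epithelium (log2 3.87), and Crygn, the gamma-N gene, had 3533, 3236 and 3516 and 84.3, 117 and 78 (log2 5.20). Cryab, which encodes the alpha-B chain, was the member that was not called: 1771, 1892 and 1799 CPM in fiber and 1689, 1700 and 1666 in epithelium (log2 0.11 ± 0.14 SE, edgeR adjusted p = 0.487). All 3 fiber values were above the epithelium values by a margin small beside the fitted error.

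**Figure D2:**
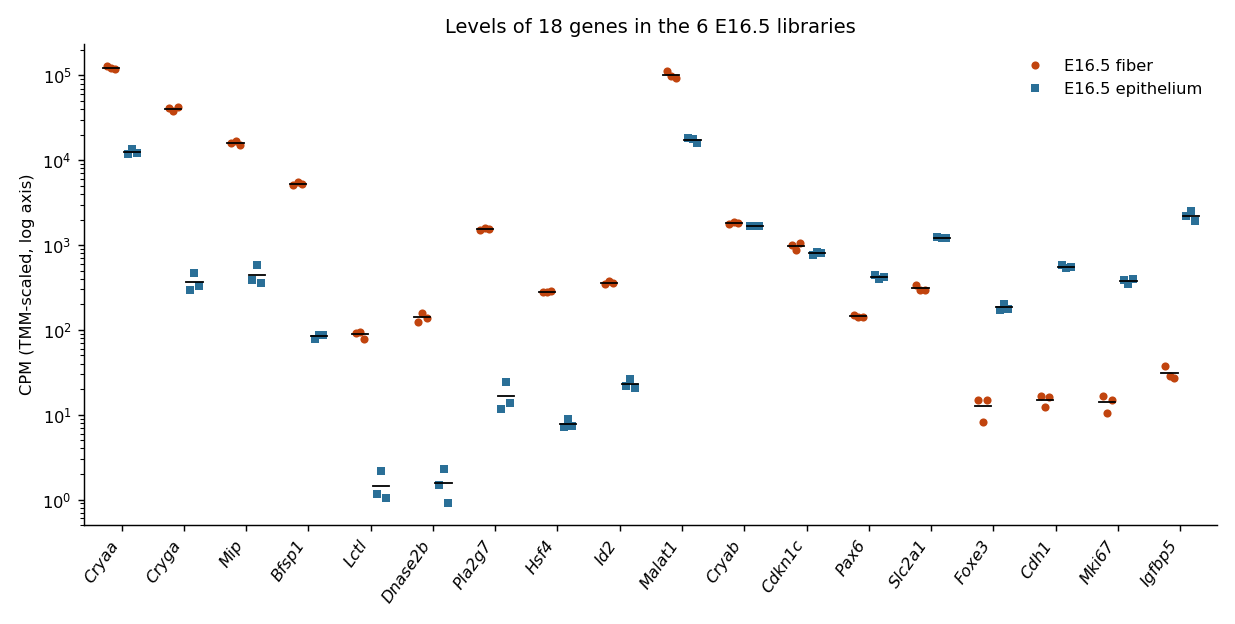
CPM of 18 genes in the 3 fiber (orange circles, left) and 3 epithelium (blue squares, right) libraries of E16.5, on a log axis, with a black bar at each group's mean. Crystallin, membrane, nuclease and phospholipase genes on the left are higher in every fiber library, Cryab and Cdkn1c lie close together in both tissues, and genes on the right from Pax6 to Igfbp5 are lower in every fiber library.

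A list of 20 fiber genes, of the beaded filament, membrane and channels among others, gave 15 higher and 1 lower, with a median of 4.03. Bfsp1, a beaded filament protein found in fibers, had 5054, 5486 and 5319 CPM in fiber and 77.8, 87.6 and 87.9 in epithelium (log2 5.97 ± 0.17 SE, edgeR adjusted p = 4.43e-19). Mip, the aquaporin that is the most abundant membrane protein of fibers, had 16019, 16999 and 15113 CPM in fiber and 387, 587 and 359 in epithelium (log2 5.17). Neither gene's groups overlapped. Similar gaps held for the membrane protein gene Lim2 (log2 4.41), for the RNA granule gene Tdrd7, loss of which causes cataract (4.21), for Caprin2 (4.91), for the klotho-related gene Lctl (5.86) and for Birc7, an inhibitor of apoptosis (6.30). The difference of Gja3, which encodes the gap junction protein connexin 46, was smaller, with 1777, 1829 and 1723 CPM in fiber and 333, 343 and 299.6 in epithelium (log2 2.45). The member lower in fiber was Slc7a11, a cystine transporter (23.9, 41.2 and 27.9 CPM against 90, 146 and 78.9, log2 -1.76). Vim, the intermediate filament gene shared by both cell types, stayed within 2-fold (log2 0.47), as did Cdh2, which encodes N-cadherin (-0.02).

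The skeleton beneath the fiber membrane and its adhesion proteins gave 12 higher and 2 lower of 23, with a median of 1.01 that turned to -0.0682 with library size only. Tmod1, the tropomodulin that caps actin in this skeleton, had 112, 113 and 115 CPM in fiber and 3.26, 4.54 and 3.22 in epithelium (log2 4.92 ± 0.13 SE, edgeR adjusted p = 9.75e-20). The spectrin gene Sptbn1 (log2 3.54), the adhesion gene Nrcam (3.46), the alpha-N-catenin gene Ctnna2 (3.80) and the periaxin gene Prx (2.42) were higher as well. The 2 lower members were the junction gene Jam2, with 0.992, 0.582 and 0.84 CPM in fiber and 16.4, 18.8 and 20.7 in epithelium (log2 -4.54), and the neural adhesion gene Ncam1 (log2 -1.47).

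Markers of lens epithelium were split. Of 11 tested, 8 were lower in fiber and 3 higher, with a median of -2.35. With library size only, or without the crystallins, 8 were lower and 1 was higher. Cdh1, which encodes E-cadherin, had 16.8, 12.3 and 16.2 CPM in fiber and 581, 532 and 545 in epithelium (log2 -5.20 ± 0.12 SE, edgeR adjusted p = 1.67e-20). Foxe3, a forkhead factor needed for the epithelium, had 14.9, 8.23 and 14.8 CPM in fiber and 171, 203 and 177 in epithelium (log2 -3.88 ± 0.22 SE, edgeR adjusted p = 9.41e-14). The gap junction gene Gja1 (log2 -4.29) and the matrix gene Npnt (-4.50) were lower by a similar amount, and none of these 4 had overlapping groups. Pax6, the master regulator of eye development, was lower by less, with 149.5, 143 and 142 CPM in fiber and 439, 395 and 417 in epithelium (log2 -1.52). The 3 members that stood higher in fiber were the secreted Wnt modulators Sfrp1 (1883, 1911 and 1811 CPM against 778, 797 and 749, log2 1.27) and Dkk3 (log2 2.86), and the laminin receptor chain Itga6 (log2 1.17).

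Lens transcription factors went both ways, 6 higher and 10 lower of 28, with a median of -0.0389 (2 higher and 16 lower with library size only). Hsf4, the heat shock factor of the lens, whose mutation causes cataract, had 276, 279 and 289 CPM in fiber and 7.13, 8.79 and 7.42 in epithelium (log2 5.16 ± 0.098 SE, edgeR adjusted p = 1.91e-21). The spread within each tissue was small against this gap. Maf, the large MAF factor that drives crystallin genes, had 2217, 2438 and 2267 CPM in fiber and 517, 594 and 490.1 in epithelium (log2 2.11), and its partner Mafg was also higher (log2 1.46). Sox1, which fibers need to elongate, was at log2 1.68, and the FGF-responsive ETS factor Etv5 at 1.55. Prox1, a fiber differentiation factor, had 1258, 1329 and 1252 CPM in fiber and 716, 738 and 699.7 in epithelium, less than 2-fold apart (log2 0.83). Among those lower in fiber were Tfap2a, the AP-2 alpha factor of the epithelium (log2 -2.88), Sox2 (-1.92) and Sox11 (-1.64).

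Genes of cell division were lower almost without exception: 25 of 26 DNA replication genes (median -2.83) and 24 of 24 mitosis genes (median -4.44), with none higher in fiber. Mki67, the proliferation antigen, had 16.6, 10.5 and 14.8 CPM in fiber and 384, 345 and 399 in epithelium (log2 -4.76 ± 0.16 SE, edgeR adjusted p = 7.77e-18). Top2a, whose promoter is shown above, had 9.82, 7.48 and 9.81 and 287, 269.9 and 286 CPM (log2 -4.96). Bub1, a spindle checkpoint kinase, was the lowest of the mitosis genes relative to epithelium, at 0.893, 0.333 and 0.654 CPM in fiber and 43.4, 43.1 and 47 in epithelium (log2 -6.17 ± 0.18 SE, edgeR adjusted p = 4.11e-19). No fiber library came near an epithelium library for any of these 3. Cdk1 (log2 -4.70) and Cdc20 (-3.79) followed the same pattern. Of the replication genes, Rrm2, a subunit of the enzyme that makes deoxynucleotides, was at log2 -5.50, the polymerase gene Pole at -4.55, the helicase gene Mcm6 at -4.42 and the clamp gene Pcna at -2.51. The exception was Gins4 (log2 -0.42).

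Cell cycle inhibitors did not mirror this. Of 24 inhibitor, D cyclin and E2F genes, 1 was higher in fiber and 12 were lower. Cdkn1c, which encodes p57 and marks cells leaving the cycle at the lens equator, had 1002, 871 and 1046 CPM in fiber and 765, 832 and 808 in epithelium (log2 0.28 ± 0.093 SE, edgeR adjusted p = 0.00911), a difference under 2-fold with every fiber library above the epithelium ones. Cdkn1b, which encodes p27, lay at log2 0.34. Cdkn2c, which encodes p18, was lower, with 0.794, 0.831 and 0.747 CPM in fiber and 12, 10.8 and 9.6 in epithelium (log2 -3.75), and the D cyclins Ccnd1 (log2 -1.19) and Ccnd2 (-1.13) were lower by little more than 2-fold. E2f8, a repressor of the late cycle, was at log2 -4.61. The member higher in fiber was the stress-induced gene Gadd45a (15.1, 15.9 and 14.8 CPM against 2.25, 2.27 and 2.17, log2 2.77).

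**Figure D3:**
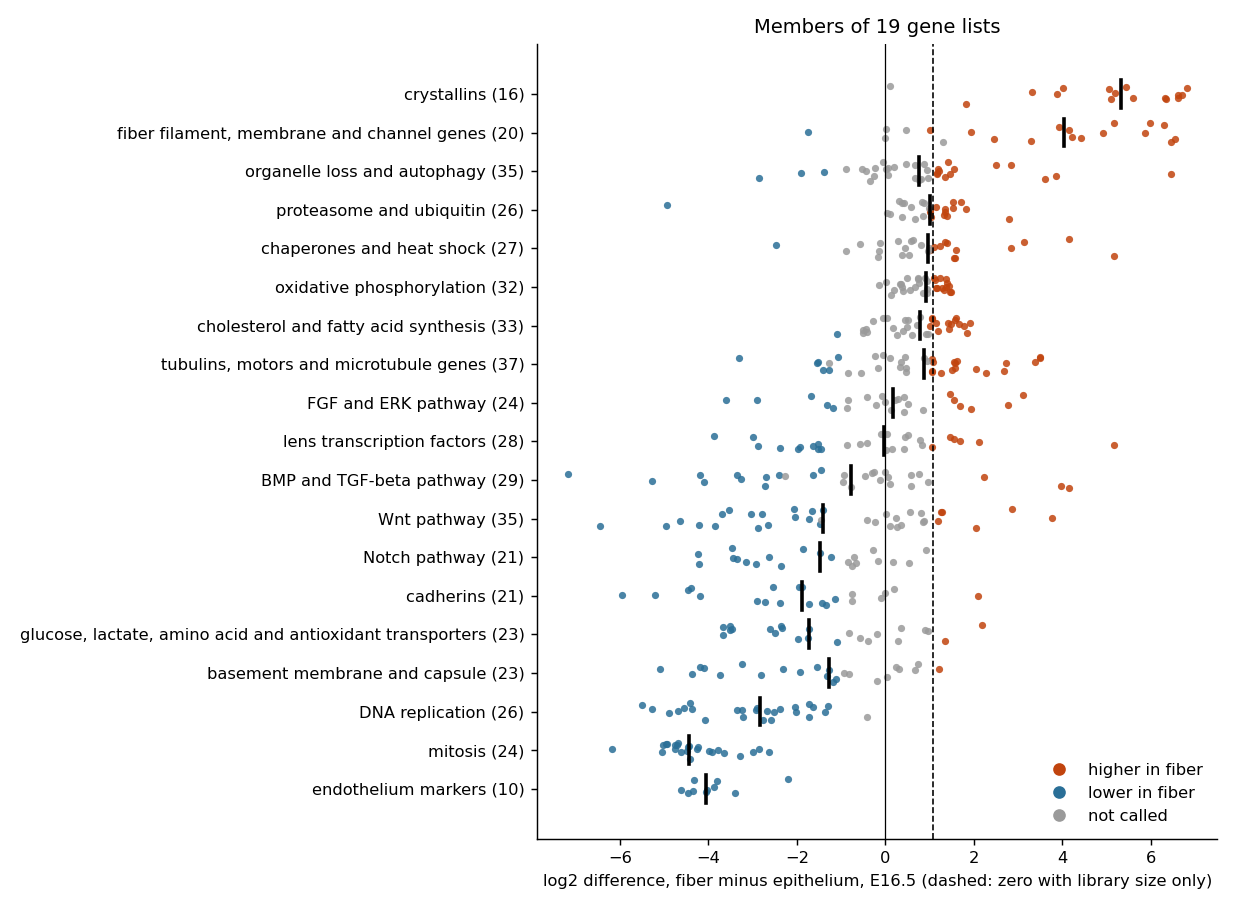
Each point is 1 gene of a list, placed by its log2 difference, fiber minus epithelium at E16.5, and coloured by call, with the list's median as a black bar and the number tested in brackets. Crystallins (median 5.31) and mitosis genes (median -4.44) lie at opposite ends, several metabolic lists lie between the solid line at 0 with TMM and the dashed line at 0 with library size only, and the leftmost point, Bmp4, had no count in fiber, so that its place is set by the fit.

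Genes tied to organelle loss and autophagy gave 13 higher and 3 lower of 35, with a median of 0.764 that turned to -0.316 with library size only. Dnase2b, the DNase that degrades fiber nuclear DNA, had 125, 159 and 139 CPM in fiber and 1.47, 2.27 and 0.9 in epithelium (log2 6.45 ± 0.23 SE, edgeR adjusted p = 1.53e-17). Pla2g16, a phospholipase that degrades organelle membranes in the lens, had 565, 649 and 649.6 CPM in fiber and 39.5, 48.5 and 39.8 in epithelium (log2 3.86). For both genes the tissues did not overlap. The autophagy receptor gene Optn (log2 3.60), the ATG8 family gene Gabarapl1 (2.84), the lysosome regulator gene Tfeb (2.50), the lysosomal protease gene Ctsd (1.55) and the lysosomal membrane gene Lamp1 (1.47) were higher too. The 3 lower members included the lamin gene Lmnb1, with 17.9, 14.6 and 14.8 CPM in fiber and 112, 119 and 109 in epithelium (log2 -2.85), and Hif1a, the oxygen-sensing factor (-1.90). In the list of calpains and phospholipases A2, 4 of 16 were higher and 1 lower, with a median of 0.622 that turned to -0.457 with library size only and to -0.0446 without the crystallins. Capn3, whose lens form is a calcium-activated protease, had 7673, 8497 and 8518 CPM in fiber and 517, 562 and 472 in epithelium (log2 3.99). Pla2g7, a secreted phospholipase that inactivates platelet-activating factor, had 1526, 1605 and 1555 CPM in fiber and 11.7, 24 and 13.6 in epithelium (log2 6.55 ± 0.24 SE, edgeR adjusted p = 2.46e-17), and the cytosolic phospholipase gene Pla2g4a went the other way (log2 -5.13).

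Membrane transport was weighted to the epithelium. Of 26 channel and pump genes 3 were higher in fiber and 13 lower (median -1.08), and of 23 transporter genes 2 were higher and 13 lower (median -1.72). The channel genes higher in fiber included Scnn1b, which encodes the beta chain of an epithelial sodium channel (97.4, 139.7 and 124 CPM in fiber against 0.698, 1.86 and 1.57 in epithelium, log2 6.39 ± 0.17 SE, edgeR adjusted p = 1.32e-19) and the potassium channel gene Kcnj6 (log2 6.15). Atp1b3, which encodes a beta subunit of the sodium pump, lay on the other side, at 79.5, 70.7 and 81.5 CPM in fiber and 375, 353 and 360.5 in epithelium (log2 -2.23). Slc2a1, the glucose transporter GLUT1, had 339, 293 and 293 CPM in fiber and 1247, 1202 and 1209 in epithelium (log2 -1.98 ± 0.089 SE, edgeR adjusted p = 1.12e-15). The lactate transporter gene Slc16a1 (log2 -3.46) and the amino acid transporter genes Slc7a8 (-3.51) and Slc38a3 (-3.51) were lower by over 10-fold. The transporters higher in fiber were the copper transporter gene Slc31a1 (log2 2.19) and the neutral amino acid transporter gene Slc1a4 (1.34).

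In the FGF and ERK pathway 6 of 24 genes were higher and 5 lower, against 14.6% and 20.4% of all genes. The median of 0.176 turned to -0.9 with library size only and to -0.486 without the crystallins. The receptor gene Fgfr3 had 519, 539 and 513 CPM in fiber and 165, 166 and 157 in epithelium (log2 1.69), while Fgfr1 (log2 0.43) and Fgfr2 (-0.42) stayed within 2-fold. The feedback inhibitors of the pathway, themselves FGF targets, moved up in part. Spry1 had 98.1, 100.3 and 85.5 CPM in fiber and 9.15, 12.6 and 10.6 in epithelium (log2 3.12 ± 0.13 SE, edgeR adjusted p = 2.07e-16), and Spry2 was at log2 1.92. The adaptor gene Shc1 (log2 2.77) and the ERK phosphatase gene Dusp4 (1.47) were higher, and the phosphatase gene Dusp6, also an ERK target, was lower, at 12.2, 12.3 and 10.7 CPM in fiber and 26.4, 26.7 and 34.9 in epithelium (log2 -1.32).

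The Notch list had no member higher in fiber and 12 of 21 lower, with a median of -1.48. The receptor gene Notch2 had 25.7, 20.5 and 21.2 CPM in fiber and 257, 231 and 238 in epithelium (log2 -3.43 ± 0.087 SE, edgeR adjusted p = 8.26e-20), and Notch1 was lower by less (log2 -1.48). Among their targets, Hes1 (log2 -3.15) and Heyl (-4.20) were lower. Jag1, the ligand that nascent fibers present to the epithelium, had 943, 995 and 959.7 CPM in fiber and 515, 530.1 and 478 in epithelium and fell short of 2-fold (log2 0.93).

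BMP and TGF-beta genes gave 3 higher and 11 lower of 29 (median -0.77), and the ID genes, classic BMP targets that block basic helix-loop-helix factors, were divided. Id2 had 344, 378 and 353 CPM in fiber and 21.6, 26.1 and 20.9 in epithelium (log2 3.96 ± 0.11 SE, edgeR adjusted p = 1.41e-19), and Id1 was at log2 2.22. Id3 had 7.04, 3.57 and 5.04 CPM in fiber and 54.4, 52 and 51.7 in epithelium (log2 -3.35 ± 0.15 SE, edgeR adjusted p = 9.19e-16). The 3 family members thus stood apart in direction, each without overlap between tissues. The receptor gene Bmpr1b was higher (log2 4.14) and the ligand gene Bmp7 lower (-2.71). The ligand gene Bmp4 had 0 counts in all 3 fiber libraries and 2, 13 and 45 counts in epithelium.

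Wnt genes gave 6 higher and 17 lower of 35 (median -1.41), and 2 higher and 21 lower with library size only. The ligand genes Wnt7a, with 110.4, 123 and 121 CPM in fiber and 8.84, 9.26 and 8.1 in epithelium (log2 3.75), Wnt7b (log2 1.20) and Wnt5b (1.25) were higher, with the planar polarity gene Celsr1 (2.05). The receptor gene Fzd7 had 8.23, 7.65 and 8.22 CPM in fiber and 102, 105 and 103 in epithelium (log2 -3.69 ± 0.086 SE, edgeR adjusted p = 1.88e-20), and Fzd2 was at log2 -4.63. With TMM scaling, these 3 ligands stood on the fiber side and these 2 receptors on the epithelium side. Axin2, a target of the beta-catenin branch (log2 -2.04), and its transcription factor gene Lef1 (-4.22) were lower. The secreted antagonist gene Dkk1 had 0, 0 and 1 counts in fiber and 49, 50 and 51 in epithelium.

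IGF and PDGF genes gave 3 higher and 12 lower of 18 (median -1.81). Igf2, the fetal growth factor, had 1311, 1587 and 1066 CPM in fiber and 82.5, 132 and 134 in epithelium (log2 3.50 ± 0.2 SE, edgeR adjusted p = 6.29e-14), and the receptor substrate gene Irs1 was at log2 2.67. Igfbp5, which binds IGFs outside the cell, was the most abundant of the strongly epithelial genes, with 37.6, 28.8 and 27.4 CPM in fiber and 2223, 2503 and 1909 in epithelium (log2 -6.15 ± 0.3 SE, edgeR adjusted p = 6.08e-15). Pdgfra, the PDGF receptor of the lens epithelium, was at log2 -3.22. Hippo pathway genes had no member higher and 8 of 17 lower, among them the coactivator gene Wwtr1 (log2 -3.57), the factor gene Tead4 (-4.78) and the target genes Ctgf (-3.62) and Amotl2 (-3.32), while Yap1 stayed within 2-fold (-0.86). Eph receptors and ephrins had no member higher and 10 of 18 lower, such as the ligand gene Efna1 (log2 -5.07) and the receptor gene Ephb4 (-2.87). Epha2, a receptor mutated in human cataract, had 109, 116 and 109 CPM in fiber and 55.3, 60.5 and 59.3 in epithelium and missed 2-fold (log2 0.93), and its ligand Efna5 was lower (-1.29).

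Cadherin, basement membrane and other matrix genes were mostly lower in fiber, as were markers of mesenchyme, mural cells and endothelium. The mesenchyme markers summed to 77.2 to 81.1 CPM in fiber and 587 to 634 in epithelium. Most of that sum came from Pdgfra, which is also a receptor of the lens epithelium. The part of these other cells in these gene groups was not tested. Among 21 cadherins 15 were lower, such as Pcdh19 (log2 -4.38) and Cdh3 (-5.95), and the 1 higher was the protocadherin gene Pcdh17, with 15.6, 21.2 and 24.4 CPM in fiber and 3.8, 4.83 and 5.7 in epithelium (log2 2.09). Of 22 integrin and focal adhesion genes 2 were higher and 7 lower. The laminin receptor chain Itga3 had 3.08, 1.91 and 2.24 CPM in fiber and 109, 119 and 106 in epithelium (log2 -5.54 ± 0.19 SE, edgeR adjusted p = 1.16e-17), the fibronectin receptor chain Itga5 was at log2 -3.39, and the collagen receptor chain Itga2 was higher (2.75). Itgb1, their shared beta chain, stayed within 2-fold (log2 0.74). Basement membrane genes gave 1 higher and 14 lower of 23 (median -1.28). Col4a1, a main chain of capsule collagen, had 2917, 3055 and 2972 CPM in fiber and 2652, 2536 and 2447 in epithelium, close to equal (log2 0.23), whereas Col4a4, a chain of the later collagen IV network, had 1.29, 0.416 and 1.87 and 48.9, 27.6 and 44 CPM (log2 -5.09). The heparan sulfate proteoglycan genes Agrn (log2 -3.25) and Hspg2 (-1.18) and the laminin gene Lamc1 (-1.93) were lower, and Lama3 was the member that was higher (1.20). Of 23 genes of fibrillar and other matrix 17 were lower and 1 higher (median -1.86). Thbs1, which encodes thrombospondin 1, had 8.33, 4.24 and 9.81 CPM in fiber and 262, 255 and 244 in epithelium (log2 -5.11), Fbn1, which encodes fibrillin of the zonule, was at log2 -3.65, and Fn1, which encodes fibronectin, at -2.19.

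Tubulins, motors and microtubule genes gave 17 higher and 6 lower of 37, with a median of 0.867 that turned to -0.209 with library size only. Kif1a, a kinesin of long-range transport in neurons, had 1259, 1398 and 1157 CPM in fiber and 96, 124 and 118 in epithelium (log2 3.50 ± 0.11 SE, edgeR adjusted p = 1.32e-18), and the dynein gene Dync1i1 was at log2 3.50. The tubulin genes Tubb2a (log2 3.37), Tubb6 (2.73) and Tuba1a (2.04) were higher, with the reservation that tubulin genes are alike and reads may be shared. Stmn1, which takes microtubules apart, had 1.69, 1.5 and 0.934 CPM in fiber and 15, 12.1 and 14.1 in epithelium (log2 -3.31).

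Energy metabolism was covered by 2 lists. Oxidative phosphorylation genes gave 13 higher and 0 lower of 32, with a median of 0.915 that turned to -0.158 with library size only, a scaling that left 0 higher and 2 lower. Atp5b, the ATP synthase beta subunit, had 1077, 1053 and 1075 CPM in fiber and 407, 417 and 389 in epithelium (log2 1.40). Glycolysis and hypoxia genes gave 5 higher and 7 lower of 23 (median -0.277). Ldha, lactate dehydrogenase A, had 94.5, 82 and 78.1 CPM in fiber and 330.5, 312 and 326 in epithelium (log2 -1.93 ± 0.27 SE, edgeR adjusted p = 5.63e-07), while Ndrg1, a hypoxia-responsive gene, had 368, 453 and 389.7 and 4.96, 8.96 and 6.52 CPM (log2 5.86). The growth factor gene Vegfa (log2 1.24) and the enzyme genes Eno2 (1.82) and Aldoc (1.46) were also higher in fiber. Genes of cholesterol and fatty acid synthesis gave 14 higher and 1 lower of 33, with a median of 0.781 that turned to -0.294 with library size only, where none was called higher. The lanosterol synthase gene Lss, a cataract gene, had 103, 122 and 111 CPM in fiber and 27.7, 33.7 and 26.9 in epithelium (log2 1.92), and the desaturase gene Scd2 was the most abundant of those higher, with 2753, 3024 and 2708 CPM in fiber and 870.5, 1053 and 882 in epithelium (log2 1.60).

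In glutathione and redox metabolism 6 of 34 were higher and 4 lower, with a median of 0.255 that turned to -0.819 with library size only and to -0.406 without the crystallins. Gss, which makes glutathione, had 582, 607 and 564 CPM in fiber and 61.8, 73.5 and 53.4 in epithelium (log2 3.21 ± 0.083 SE, edgeR adjusted p = 9.75e-20). The peroxidase gene Gpx1 (log2 2.62) and Hmox1, the heme oxygenase, with 163, 208 and 219 CPM in fiber and 4.03, 5.76 and 7.35 in epithelium (log2 5.10), were higher, and the glutathione transferase gene Gstm1 was lower (-2.59). Chaperone and heat shock genes gave 12 higher and 1 lower of 27, with a median of 0.961 that turned to -0.117 with library size only. Dnajb1, a heat shock co-chaperone, had 243, 274 and 280.4 CPM in fiber and 27.8, 31.7 and 31 in epithelium (log2 3.14), and the chaperonin gene Cct5 was at log2 1.55. Hspb2 was the lower member (log2 -2.48). The endoplasmic reticulum chaperone gene Hspa5 lay within 2-fold (log2 -0.89). Proteasome and ubiquitin genes gave 13 higher and 1 lower of 26, with a median of 0.998 that turned to -0.0812 with library size only. The catalytic subunit gene Psmb5 was at log2 1.71, the ubiquitin hydrolase gene Uchl1 at 2.79, and the lower member, Ube2c, is the ubiquitin-conjugating enzyme of mitosis, with 0.694, 0.748 and 1.31 CPM in fiber and 28.9, 27.8 and 28.3 in epithelium (log2 -4.94).

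Of 31 cytoplasmic ribosomal protein genes 3 were higher and 0 lower, with a median of 0.388 that turned to -0.678 with library size only and to -0.262 without the crystallins. Of 31 RNA-binding and translation genes 8 were higher and 2 lower, with a median of 0.14 that turned to -0.938 and -0.528 under the same 2 scalings. Celf1, an RNA-binding protein whose loss causes cataract, had 2286, 2559 and 2463 CPM in fiber and 910.1, 1036 and 939 in epithelium (log2 1.34). Rbm24, a regulator of splicing and RNA stability needed in eye development, was at log2 2.08, Rbm38 at 2.25, the poly(A)-binding gene Pabpc1 at 1.63 and the cap-binding gene Eif4e at 1.68. Of 25 chromatin remodeling genes 0 were higher and 4 lower, against 14.6% and 20.4% of all genes, such as Chd3 (log2 -2.07). Of 37 histone and DNA modifying enzymes 1 was higher, the acetyltransferase gene Kat2b (114, 122 and 113 CPM in fiber against 24.2, 24.5 and 22.4, log2 2.29), and 8 were lower, among them the maintenance methylation genes Uhrf1 (log2 -3.83) and Dnmt1 (-1.50).

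Of 18 long noncoding RNAs 8 were higher and 1 lower, with a median of 0.679 that turned to -0.403 with library size only. Malat1, a nuclear RNA, had 114250, 98653 and 93716 CPM in fiber and 18430, 17777 and 15790 in epithelium (log2 2.56 ± 0.12 SE, edgeR adjusted p = 1.8e-15), and per kb it came next after Cryaa in epithelium (2482 CPM per kb) and stood among the 10 most abundant in fiber (14640). Rmst had 634, 811 and 699.6 CPM in fiber and 18.7, 28.6 and 43.3 in epithelium (log2 4.57), and Miat 301, 285 and 329 and 25.8, 22.8 and 37.6 (log2 3.42). The imprinted RNAs Meg3, with 66.1, 109 and 292 CPM in fiber and 9.84, 15 and 27.7 in epithelium (log2 3.16 ± 0.5 SE, edgeR adjusted p = 4.16e-06), and Rian, from the same locus, with 27.7, 55.6 and 154 and 7.21, 9.37 and 15.9 CPM (log2 2.88), varied most between replicates. Replicate 3 was the highest in both tissues for both RNAs. Of 8 genes of the Nlrc5 and MHC class I group 2 were higher and 3 lower. Nlrc5, an activator of MHC class I genes in immune cells, had 178, 196 and 189 CPM in fiber and 4.11, 4.13 and 5.1 in epithelium (log2 5.40 ± 0.23 SE, edgeR adjusted p = 4.31e-16). Its target B2m was at 4.66, 3.82 and 4.76 CPM in fiber and 6.28, 6.34 and 6.22 in epithelium (log2 -0.51), and H2-K1 was lower (-2.25). These 2 targets did not stand higher in fiber, while another member of the group, beside Nlrc5, did. The 8 genes, Nlrc5 included, summed to 312.7, 331.7 and 314.6 CPM in fiber and 56.6, 61.2 and 55.6 in epithelium. Immediate early genes gave 6 higher and 5 lower of 15, with a median of 0.121 that turned to -0.95 with library size only and to -0.535 without the crystallins. Dusp1 had 69.2, 82.1 and 85.6 CPM in fiber and 14.9, 18.7 and 13.9 in epithelium (log2 2.31), Klf6 was at log2 1.93, and Myc was lower (-3.21).

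Across all genes of at least 50 CPM in the higher tissue, the 15 with the largest rise included members of the lists above and 4 outside them. Igfn1, a muscle protein gene, had 139, 170.3 and 109.9 CPM in fiber and 1.63, 2.27 and 0.75 in epithelium (log2 6.44). Pgam2, the muscle form of phosphoglycerate mutase, had 228, 324 and 284 CPM in fiber and 2.87, 4.83 and 3.07 in epithelium (log2 6.24 ± 0.17 SE, edgeR adjusted p = 2.01e-19). Mypn, which encodes the sarcomere protein myopalladin, had 86.5, 284 and 229 and 1.09, 4.77 and 3.22 CPM (log2 5.98 ± 0.76 SE, edgeR adjusted p = 1.63e-07). These 3 are genes of striated muscle, and replicate 1 was the lowest for Mypn in both tissues. The remaining one was the protease gene Tmprss11e, with 67.4, 89.2 and 97.8 CPM in fiber and 0.853, 0.99 and 1.35 in epithelium (log2 6.31).

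The 15 largest falls were of genes higher in the epithelium libraries, and which cells of the dissected tissue held their RNA was not tested. Lrtm1, a leucine-rich membrane protein gene, had 0.298, 0.914 and 0.374 CPM in fiber, from 3, 11 and 4 counts, and 75.7, 74.1 and 72 CPM in epithelium (log2 -7.05 ± 0.22 SE, edgeR adjusted p = 1.58e-18). R3hdml had 3.27, 1.33 and 1.87 CPM in fiber and 195, 196 and 171 in epithelium (log2 -6.47), and the sulfatase gene Arsi 1.49, 0.831 and 0.84 and 76.6, 78 and 77.1 (log2 -6.21). Necab1, a neuronal calcium-binding protein gene, was at log2 -5.83, and Sulf1, an enzyme that edits heparan sulfate outside the cell, at -5.69. The axon guidance gene Draxin (log2 -5.56), the matrix genes Tinagl1 (-5.43) and Emilin3 (-5.18), the membrane genes Tmem132b (-5.35) and Tenm2 (-5.32) and the chemokine gene Cx3cl1 (-5.16) completed the list with Igfbp5, Itga3, Cdh1 and Thbs1. For all 15 the fiber and epithelium libraries did not overlap, which selection by the largest falls favours. The same held for 80.3% of all genes. On GRCm38 (GENCODE M21), Lrtm1 lies at chr14:29018208-29033645, Igfbp5 at chr1:72857932-72874884, and, from the fiber side, Hsf4 at chr8:105269801-105275845 and Pla2g7 at chr17:43568098-43612201, all protein-coding.

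Markers of cells around the lens moved with the epithelium. All 10 endothelium markers were lower in fiber (median -4.05), and their summed level was 17.9 to 38.6 CPM in fiber, against 266 to 331 CPM in epithelium. Fiber replicate 1 was the highest fiber library, for example with 4.66, 0.748 and 0.654 CPM of the vessel cadherin Cdh5 in fiber and 36.2, 39.3 and 52.3 in epithelium. Of the 10, Emcn was at 0 in at least 1 fiber library. All 7 mural cell markers (median -3.52), 6 of 6 macrophage markers (-3.43) and 7 of 8 mesenchyme markers (-2.4) were lower as well, and no member of these 4 lists was higher. Their sums were 35.6 to 54.7 CPM in fiber and 304 to 328 in epithelium for mural cells. For macrophages they were 1.21 to 1.5 and 10.7 to 16.2. For mesenchyme they were 77.2 to 81.1 and 587 to 634, mostly from Pdgfra, which is also a receptor of the lens epithelium. The embryonic lens is wrapped in a vessel network, and the part of these cells in the genes lower in fiber was not tested. Retina markers gave 1 higher and 3 lower of 8, with a summed level of 8.4 to 11 CPM in fiber and 9.61 to 31.5 CPM in epithelium, and replicate 3 was the highest epithelium library. Pigment cell markers summed to 91 to 114 CPM in fiber, nearly all of it from Mitf, and to 5.89 to 12.8 CPM in epithelium. The pigment genes Tyr, Tyrp1 and Mlana were at 0 in at least 1 fiber library each.

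The tissue difference at E16.5 was set beside those of the neighbouring stages, which come from other libraries. At E14.5, 1736 genes were higher in fiber (14%) and 2407 lower (19.4%), and 1473 of the higher genes (81.1% of those at E16.5 and 84.9% of those at E14.5) and 2195 of the lower ones (86.6% and 91.2%) were called at both stages. At E18.5, with 2162 higher (17.4%) and 3006 lower (24.2%), the shared genes were 1642 (90.4% and 75.9%) and 2371 (93.6% and 78.9%). In the test of the difference itself, 99 genes had a tissue difference at E16.5 above that at E14.5 (0.797% of 12427) and 124 below it (0.998%), 223 in all (1.79%). Against E18.5, 541 were above (4.35%) and 116 below (0.933%), 657 in all (5.29%), and 634 without E18.5 fiber replicate 2, a library left out after its values were seen, in which Rn45s took 28.9% of the counts. Both tests use the same 6 libraries of E16.5. Of the 541 genes, 468 (86.5%) moved more in epithelium than in fiber between the stages, with a median log2 change, E16.5 minus E18.5, of 0.243 in fiber and -1.47 in epithelium. Most of this set thus stood lower in epithelium at E16.5 than at E18.5.

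**Figure D4:**
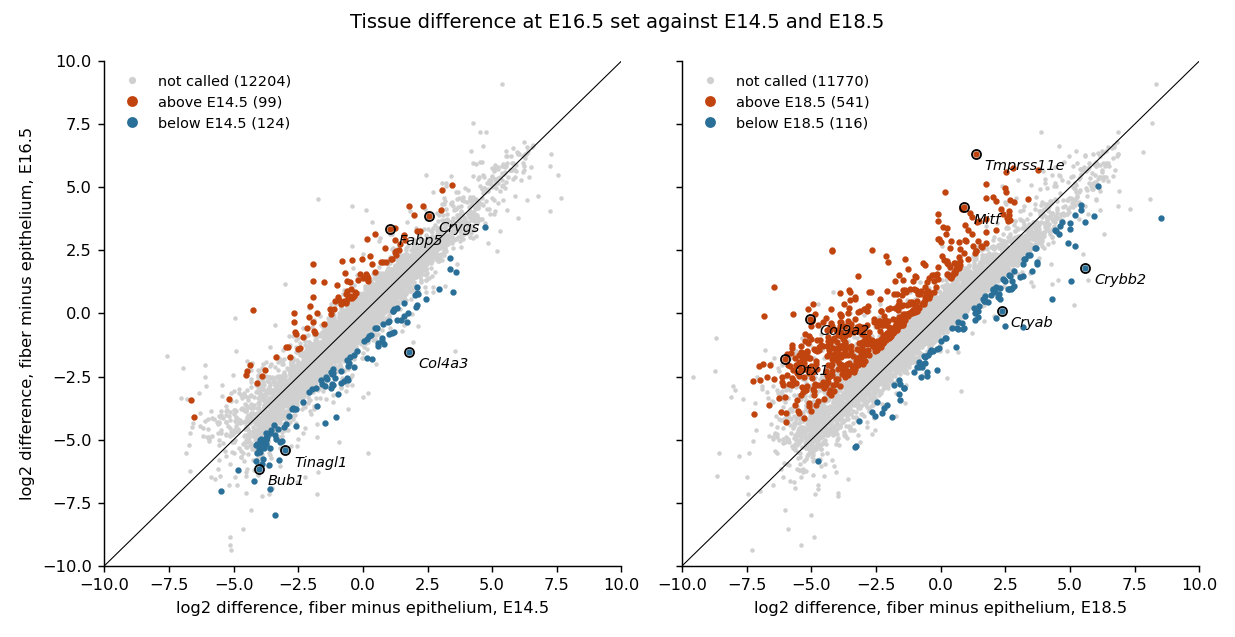
Log2 difference, fiber minus epithelium, at E16.5 (vertical) against E14.5 (left panel) and E18.5 (right panel), 1 point per gene, with the line of equal differences. Genes whose difference passed the test of a stage difference are coloured, 99 above and 124 below E14.5, and 541 above and 116 below E18.5.

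Of the 16 crystallins, 5 had a tissue difference at E16.5 below that at E18.5, against 0.933% of all genes, and 1 had one above that at E14.5, against 0.797%. The log2 difference of Crybb2 was -0.38 at E14.5, 1.82 at E16.5 and 5.58 at E18.5, where fiber stood at 1004 CPM ± 420.1 and epithelium at 21 ± 12.9 (SD, n = 3 each). The test of E16.5 against E18.5 gave -3.76 (edgeR adjusted p = 0.000179). Cryab followed with -0.05, 0.11 and 2.35 at the 3 stages, and its fiber level was 10096 CPM ± 1340.5 at E18.5, against 1974 ± 122 in epithelium (E16.5 minus E18.5 -2.24, edgeR adjusted p = 1.32e-07). Crygs differed from both neighbours in the order of the stages, 2.57, 3.87 and 5.91. For Cryaa, 3.77, 3.31 and 4.41, the E16.5 value was the lowest of the 3, and only the difference to E18.5 passed the test (-1.10). The fifth, Cryba1 (-1.02), fell short of 2-fold without fiber replicate 2 (-0.99), epithelium replicate 2 (-0.86) or E18.5 fiber replicate 2 (-0.98). Cryga, Crygb, Crygc, Crygd, Cryge and Crygf had no difference called against either neighbour.

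Among genes above E14.5 with at least 50 CPM in a tissue at either stage, leaving out predicted genes, the largest was Fabp5, a fatty acid binding protein gene, at 1.04, 3.34 and 4.99 over the 3 stages (E16.5 minus E14.5 2.30, edgeR adjusted p = 7.71e-05). It was followed by the alpha-actinin gene Actn2 (1.82), the calcium channel gene Trpc6 (1.76), Hmox1 (1.66), the adhesion receptor gene Adgrl2 (1.62) and Trafd1 (1.57). In the cadherin list, Pcdh17 stood at -0.79, 2.09 and 2.77. Among those below E14.5, with the same limit, Tinagl1 was at -3.00, -5.43 and -4.92 (E16.5 minus E14.5 -2.44, edgeR adjusted p = 0.0017) and Bub1 at -4.02, -6.17 and -5.55 (-2.15, edgeR adjusted p = 3.66e-05). Fam210b (-1.93), Adamtsl4 (-1.89), Thbs1 (-1.88) and Tacr1 (-1.71) followed, of which Adamtsl4 is a matrix gene mutated in human lens dislocation and Tacr1 encodes the substance P receptor. Of the mitosis list, 4 of 24 were below E14.5, against 0.998% of all genes. Col4a3, a partner of Col4a4, was called in opposite directions. At E14.5 it had 7.5 ± 1.14 CPM in fiber and 2.16 ± 0.768 in epithelium (SD, n = 3 each, log2 1.80), and 7.64, 10.8 and 10.5 CPM in fiber and 32.3, 21.1 and 31.6 in epithelium at E16.5 (log2 -1.54). The stage difference was -3.33 (edgeR adjusted p = 0.00013).

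Genes whose tissue difference at E16.5 was above that at E18.5 included 4 of 8 retina markers, 5 of 7 pigment cell markers and 8 of 23 genes of fibrillar and other matrix, against 4.35% of all genes. The summed retina markers were 6.73 to 9.71 CPM in fiber and 111 to 178 CPM in epithelium at E18.5, against 8.4 to 11 and 9.61 to 31.5 CPM at E16.5, and the summed pigment cell markers were 87.8 to 96.1 and 187 to 223 CPM at E18.5. Their part in the stage differences was not tested. The 6 largest with at least 50 CPM in a tissue at either stage included the collagen gene Col9a2 (4.84), the melanosome gene Pmel (4.45), the glutamate receptor gene Gria1 (4.24) and the homeobox gene Otx1 (4.23). Each of these 4 was low and overlapped between tissues at E16.5. Otx1, for example, had 0.794, 1.41 and 0.84 CPM in fiber and 0.31, 2.85 and 7.72 in epithelium, with replicate 3 the highest, against 0.953 CPM ± 0.109 and 61.3 ± 9.33 at E18.5 (SD, n = 3 each). The stage difference of Otx1 missed the threshold without E16.5 fiber replicate 2 (edgeR adjusted p = 0.0529). The other two were Tmprss11e (4.95, edgeR adjusted p = 1.83e-07) and Fam129a (4.71, with 3.87, 3.91 and 3.64 CPM in fiber and 1.55, 1.63 and 3.37 in epithelium at E16.5). Mitf, the pigment cell and retinal pigment epithelium factor, had 89.1, 111 and 96.9 CPM in fiber and 3.8, 6.46 and 5.55 in epithelium at E16.5 (log2 4.21), and 87.1 ± 3.97 and 46 ± 5.55 at E18.5 (log2 0.92), so that the fiber level barely moved and the epithelium level was the part that differed.

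Growth factor and noncoding RNA genes of the fiber also belonged to that set. Igf2 had 457 CPM ± 134 in fiber and 239 ± 8.99 in epithelium at E18.5, a log2 difference of 0.94 against 3.50 at E16.5 (E16.5 minus E18.5 2.57, edgeR adjusted p = 2.95e-07). Rmst (2.81), Miat (3.33), Meg3 (2.94) and Rian (2.48) were likewise above E18.5, the last of them not without E16.5 fiber replicate 3 (edgeR adjusted p = 0.0789). Below E18.5 stood, beside the crystallins, Tbc1d30 (-3.74), the adaptor gene Lcp2 of blood cells (-1.85) and the lactate transporter gene Slc16a3 (-1.81). Tbc1d30 had 10.1, 11.3 and 10.4 CPM in fiber and 15.9, 14.3 and 16.6 in epithelium at E16.5, and 161 ± 91.4 and 17.6 ± 2.35 at E18.5. The difference at E16.5 was above both neighbours for 10 genes and below both for 3. Col11a1 is the named gene of the first kind, at -1.92, -0.33 and -3.88 over the stages, and Necab1 of the second, at -4.13, -5.83 and -4.74. The difference of Col11a1 to E14.5 was lost without either of fiber replicates 2 and 3 or epithelium replicates 1 and 2 (edgeR adjusted p = 0.0639 to 0.104), and that of Necab1 to E18.5 without fiber replicate 2 (0.0695).

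**Figure D5:**
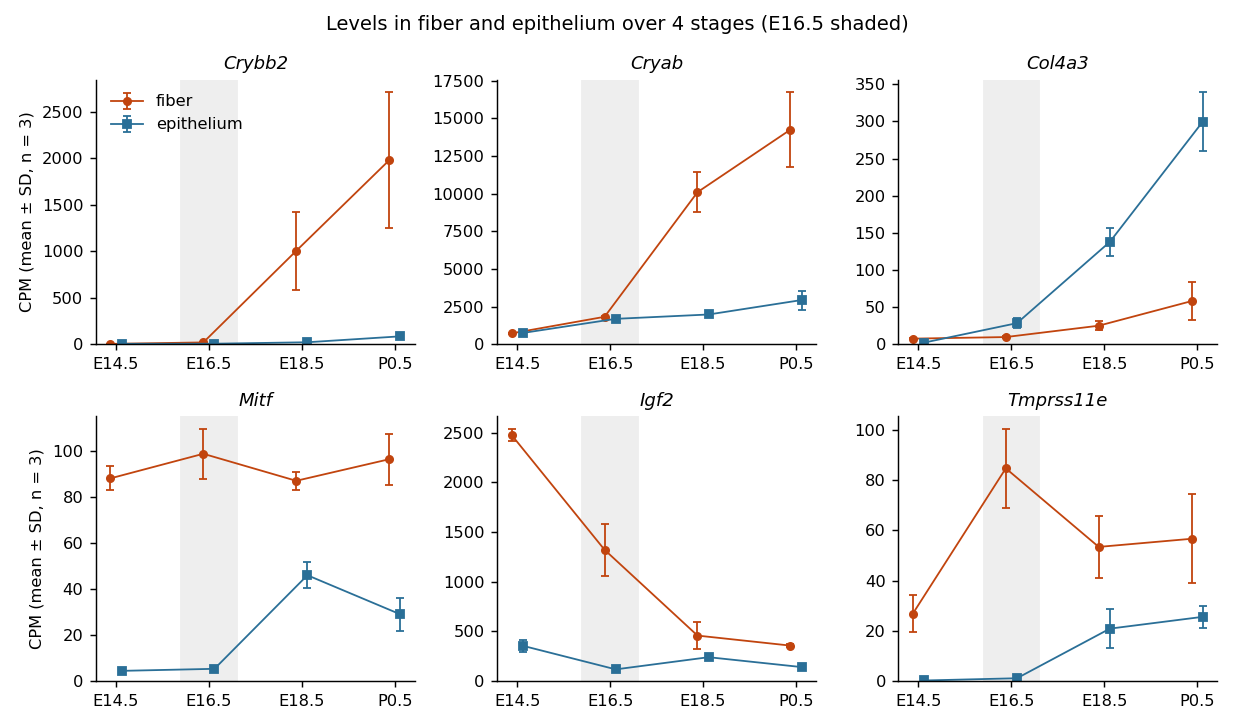
Mean CPM ± SD (n = 3) of 6 genes in fiber (orange circles) and epithelium (blue squares) at 4 stages from E14.5 to P0.5, with E16.5 shaded. Crybb2 and Cryab are near equal or low in both tissues at E16.5 and high in fiber later, Col4a3 changes sides after E14.5, Igf2 declines in fiber, and the epithelium levels of Mitf and Tmprss11e, which stay under those of fiber, are higher at the stages after E16.5.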

How the data were processed

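Total RNA of microdissected lens fiber and epithelium was sequenced in 24 libraries, 3 of each tissue at 4 stages, of which the 6 of E16.5 are the subject. The authors deposited 1 table of whole-number counts per gene and library, not normalized. Per the submitters' processing notes, the build was mm10 and the tools HTSeq 0.6.1, TopHat2 2.0.13, Cufflinks 2.2.1, Cuffdiff and Trim Galore 0.4.1. No source used here gives the strand setting of the counting, and overlapping or antisense genes may share reads.

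The table lists 12611 genes. Those passing filterByExpr of edgeR 4.0.16 (minimum count 10, minimum total 15) were kept, which left 12427 and removed 184, of which 46 had no count. Libraries were scaled with TMM, and 1 quasi-likelihood fit of the 8 group means over all 24 libraries (R 4.3.3, biological coefficient of variation 0.0821, 16 residual degrees of freedom) gave the E16.5 contrast and the differences of the tissue effect between stages. P-values are two-sided and Benjamini-Hochberg adjusted over all genes tested. A call needs an adjusted p under 0.05 and at least 2-fold. Every sentence with an adjusted p refers to edgeR's test. SE is the absolute log2 difference divided by the square root of F, and SD is over 3 libraries. With 3 libraries a group, exact permutation cannot go below 0.1, so no such test is given. The procedure was run on simulated data in which a small set of genes was changed, equally in both directions. That setting lacks the crystallin difference between the tissues, so it cannot judge the choice of scaling. Replicates differed by more than counting noise (chi-square per degree of freedom 5.96 to 77.1), so none were counted as 1 sample.

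CPM per kb used GENCODE M21 exon length, matched for 12340 symbols (97.9%). Stage medians of log2 CPM used a pseudocount of 0.5. Promoters are RefSeq's of GRCm38.p6.

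Alternatives were DESeq2 size factors, library size only, library size without crystallins or without crystallins and Rn45s, 2 other filters, the Wald test of DESeq2 1.42.0, a fit of only the stages compared, any fold, glmTreat, a replicate block and leaving out each library. Named genes are the 15 largest rises and 15 largest falls at E16.5 with at least 50 CPM in the higher tissue (no predicted genes, histones, small noncoding RNAs or immune receptor segments), the 6 largest differences each way to each neighbouring stage, the 10 most abundant per kb in each tissue, genes that differ from both neighbours, genes with opposite calls, and members of 45 gene lists; a few genes that these rules name are not reported here. The members and lists were chosen with earlier results of these data known. Endothelium, mural, macrophage, red cell, mesenchyme, retina, pigment and cornea lists mark other cells. Of 5 red cell genes tested, 4 were lower in fiber, and none of the 2 cornea genes tested was called. The globin genes Hba-a1, Hba-a2, Hbb-bs, Hbb-bt and Hbb-b1 did not pass the filter.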

Additional observations from a re-analysis of the deposited data

Results flagged for a closer look

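Genes are listed here because their tissue difference at E16.5 differed from that of a neighbouring stage in a test of the difference itself. In edgeR's quasi-likelihood test 223 genes passed against E14.5 (1.79% of those tested) and 657 against E18.5 (5.29%). Values below are E16.5 minus the other stage, of log2 fiber minus epithelium.

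Against E14.5, the named genes with a positive value were Clic5 (3.19), Pcdh17 (2.88), Fabp5 (2.30), Egr1 (2.15), Actn2 (1.82), Trpc6 (1.76), Hmox1 (1.66), Adgrl2 (1.62), Col11a1 (1.59), Trafd1 (1.57), Dusp4 (1.30) and Crygs (1.29). Of these, Crygs is a crystallin, Dusp4 an ERK phosphatase and Pcdh17 a protocadherin. The named genes with a negative value were Col4a3 (-3.33), Tinagl1 (-2.44), Bub1 (-2.15), Fam210b (-1.93), Adamtsl4 (-1.89), Thbs1 (-1.88), Tacr1 (-1.71), Necab1 (-1.70), Lrtm1 (-1.56), Rrm2 (-1.50), Emilin3 (-1.44), Itga3 (-1.43), Arsi (-1.39), Tmem132b (-1.35), Fam129a (-1.26), Cdh1 (-1.19), Cx3cl1 (-1.08) and Fzd2 (-1.07). Rrm2 and Bub1 belong to the division lists, Cdh1 and Itga3 to adhesion, and Fzd2 is a Wnt receptor. Without 1 of the 6 libraries of E16.5, the calls of Arsi, Clic5, Col11a1, Cx3cl1, Fam129a, Fzd2, Lrtm1 and Rrm2 were lost, at adjusted p up to 0.18.

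Against E18.5, the named genes with a positive value were Smpd3 (5.16), Tmprss11e (4.95), Col9a2 (4.84), Fam129a (4.71), Pmel (4.45), Gria1 (4.24), Otx1 (4.23), Col11a1 (3.55), Tyrp1 (3.47), Miat (3.33), Mitf (3.29), Vegfc (3.05), Meg3 (2.94), Rmst (2.81), Igf2 (2.57), Rian (2.48), Cnr1 (2.35), Sox11 (2.05), Bmpr1b (1.82), Gja1 (1.71), Fbn1 (1.45), Slc16a1 (1.27), B2m (1.08) and Dusp6 (1.07). Fbn1, Col11a1 and Col9a2 are matrix genes, and Gja1 is the gap junction gene of the epithelium. The named genes with a negative value were Clic5 (-3.77), Crybb2 (-3.76), Tbc1d30 (-3.74), Cryab (-2.24), Crygs (-2.04), Hspb2 (-1.94), Lcp2 (-1.85), Slc16a3 (-1.81), Fabp5 (-1.65), Cdkn2c (-1.56), Ctgf (-1.53), Cryaa (-1.10), Necab1 (-1.08), Ldha (-1.08), Epha2 (-1.07) and Cryba1 (-1.02). Cryaa, Cryab, Cryba1, Crybb2 and Crygs are crystallins, and Ctgf is a Hippo target. The calls of Cryba1, Dusp6, Ldha, Necab1, Otx1, Rian and Tyrp1 were lost without 1 library of E16.5, that of Tyrp1 most clearly without fiber replicate 3 (1.96, adjusted p = 0.607) and that of Ldha for 5 of the 6 libraries (adjusted p 0.0601 to 0.0896).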

How the results depend on the processing

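The counts at E16.5 (1816 higher, 2534 lower) and of genes whose tissue difference differed from E14.5 (223) and E18.5 (657) stayed within 1.5 times under DESeq2 size factors (1764, 2556, 225 and 660), no filter, a filter of 1 CPM, the DESeq2 Wald test (1768, 2549, 249 and 725) and a fit of only the stages compared. With library size only they were 632, 6733, 402 and 1189. With crystallins left out of the library size, 868 were higher and 4609 lower, and with Rn45s left out too, 949 and 4158. The higher genes were 41.7% of calls with TMM and 8.58%, 15.8% and 18.6% with these scalings. With any fold, the counts were 4752, 4928, 1030 and 2155. With glmTreat against 2-fold, 1416 were higher and 2060 lower, and 15 and 165 differed from E14.5 and E18.5. Leaving out each E16.5 library gave 1788 to 1855 higher, 2463 to 2554 lower, 173 to 225 against E14.5 and 599 to 735 against E18.5.

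Fiber and epithelium libraries share replicate numbers, whose origin is not stated. Deviations of same-numbered libraries correlated at 0.0442, 0.16 and 0.0472, each library best with its own number, which is a hint from the data only. With the replicate block, 1813 were higher, 2541 lower, 234 differed from E14.5 and 696 from E18.5, and of the named results only the differences of Cx3cl1 and Fam129a to E14.5 lost the call (adjusted p = 0.0536 and 0.0562).

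Of the named genes with a call in either fit, only Ermap reversed, without fiber replicate 1 (-1.17 to 5.23 over the libraries left out). With library size only, 37 of 241 named genes lost their E16.5 call and 9 gained one. Genes within 2-fold also changed sign with that scaling, such as Cdkn1c (-0.79), Cdkn1b (-0.74), Col4a1 (-0.85) and Adgrl2 (-0.43). Of the list medians, 14 of 45 changed sign with library size only, 6 with crystallins left out and 0 with DESeq2 size factors. Without epithelium replicate 3, Otx1 (-0.74, adjusted p = 0.26) and Gria1 (-0.39, adjusted p = 0.545) lost their E16.5 call, and without fiber replicate 2 Rn45s did (0.99). At 3 libraries per group, a few counts (Bmp4, Dkk1) fix no fold. Taken over all genes, replicates differed by more than counting noise, but for genes with few counts counting error can be the larger part.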

Other observations

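Values in this part were chosen after they were seen. Some large differences at E16.5, or their calls, depended on single libraries. Ermap, a red cell membrane gene, had 64.4, 0.499 and 0.28 CPM in fiber and 1.71, 0.699 and 0.375 in epithelium, so that only fiber replicate 1 was high (log2 4.54, edgeR adjusted p = 0.00356). Lars2, a mitochondrial leucyl-tRNA synthetase gene, had 872, 8648 and 1589 CPM in fiber and 123, 427 and 88.8 in epithelium (log2 4.12 ± 1.6 SE, edgeR adjusted p = 0.0194). Mir6236 had 17.3, 175 and 42.7 CPM in fiber and 2.48, 6.81 and 2.62 in epithelium, and Rn45s 86855, 244340 and 120650 and 38528, 67586 and 50465. The calls of Lars2 (edgeR adjusted p = 0.0641 and 0.0671) and Mir6236 (0.0501 and 0.0502) were lost without epithelium replicate 1 or 3. Without fiber replicate 2, Lars2 (2.53, edgeR adjusted p = 0.133), Mir6236 (2.85, 0.148) and Rn45s (0.99, 0.0766) were not called. For these 3 the second replicate was the highest in both tissues, the libraries in which Rn45s took 16.3% and 9.82% of the counts.

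Opposite calls at E16.5 and a neighbouring stage were made for 5 genes against E14.5 and 12 against E18.5, nearly all at a few CPM. Clic5, an intracellular chloride channel gene, stood at log2 -1.92, 1.27 and 5.04 over the 3 stages, with 1.59, 1.75 and 0.84 CPM in fiber and 0.388, 0.699 and 0.6 in epithelium at E16.5 and 47.8 CPM ± 9.84 in fiber and 1.46 ± 0.286 in epithelium at E18.5 (SD, n = 3 each). Its call at E16.5 was lost without any 1 of 3 libraries (edgeR adjusted p = 0.0677 to 0.112). The lymphatic growth factor gene Vegfc stood at 0.60, 1.27 and -1.78, the cannabinoid receptor gene Cnr1 at 1.87, 1.29 and -1.06, and the sphingomyelinase gene Smpd3 at 1.88, 2.52 and -2.64. The difference of Vegfc at E16.5 fell just short of 2-fold without fiber replicate 2 (0.995). The early response gene Egr1 had 11, 28 and 24 CPM in fiber and 7.91, 13.2 and 7.42 in epithelium, which overlap and stood less than 2-fold apart without fiber replicate 2 (0.86) or epithelium replicate 3 (0.98), and log2 differences of -1.02, 1.13 and 0.67.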
